A study of Homo sapiens with 2 samples.

Results

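The genes of cholesterol synthesis, of its control by the sterol regulatory element-binding proteins (SREBPs), of sterol transport and of fatty acid synthesis were followed in human corneal epithelial cells (HCECs) that received miR-184. The members are a hand-made list of 37 genes of these pathways, and each was read from array features that carry its symbol and no other, by the feature with the highest mean signal. Of the 37 genes, 33 had such a feature, out of 22419 genes in all. *NPC2*, *MYLIP* and *FADS1* lay on features that also carry the symbol of a microRNA, and no named feature was found for *FDFT1*, so that these 4 have no value here. The list was made by pathway and not by direction, with results of these arrays already known.

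HCECs are corneal epithelial cells immortalized with SV40 and grown in medium with serum, insulin and epidermal growth factor. They were transfected by lipofection with 50 nM miR-184 mimic, a synthetic RNA that supplies the mature microRNA, or with 50 nM negative control (NC) oligonucleotide, and RNA was taken at 48 h. Each condition has 1 array of this line. An effect of miR-184 and a difference between the 2 cultures therefore cannot be told apart, no error or *P*-value can be given, and every value is a description of these 2 arrays. In bulk RNA, fewer cells of a kind and less RNA per cell cannot be told apart either.

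The unit is the log2 signal of the array, and differences are given as miR-184 minus NC. A gene is called higher or lower at 1.5 times or more, which is 0.585 on the log2 scale. Over 65854 features the median log2 signal was 3.68 with miR-184 and 3.61 with NC, and the median difference over all genes was 0.04. The SD of the difference was 0.46 across the genes at or above the median signal and 0.20 across those below it, which is a spread between genes and not between replicates. The same value in both arrays was listed for 1915 features, none of which belonged to the 33 genes. Of 6 measured epithelial markers, the keratin gene *KRT14* was below the median signal, at 3.75 with miR-184 and 3.56 with NC. The other 5, *KRT5*, *KRT8*, *KRT18*, *EPCAM* and the E-cadherin gene *CDH1*, were at or above it. Of 6 corneal markers only *CLU* was, while *KRT3*, *KRT12* and *PAX6*, which define the corneal epithelium, read between 3.44 and 3.82 with miR-184 and between 3.48 and 3.81 with NC, so that the defining corneal markers were low in both. None of the 4 stromal and none of the melanocyte markers reached the median signal. The endothelial cadherin gene *CDH5* did, at 6.77 with miR-184 and 8.19 with NC, and so did the macrophage marker *CD68*, at 7.63 with miR-184 and 7.62 with NC. Some markers differed between the arrays themselves. *KRT5* (0.88) and *CDH1* (0.75) were past 1.5 times on the higher side and *CDH5* (-1.42) on the lower side, while *KRT8*, *KRT14*, *KRT18* and *EPCAM* lay between.

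Cells make cholesterol from acetyl-CoA through mevalonate, squalene and lanosterol. The SREBPs are transcription factors held in the membrane of the endoplasmic reticulum. When sterols run low the escort protein SCAP carries them to the Golgi, where they are cut and released to switch on genes for sterol and fatty acid synthesis, and when sterols are plentiful the INSIG proteins keep SCAP and its cargo in place. An excess of sterols is instead read by the liver X receptors (LXRs), which switch on exporters of the ABC family.

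The sequence of the transfected microRNA is shown because this RNA was given to one culture and the NC oligonucleotide to the other. The miR-33 sequences are shown because the 2 SREBP genes carry these microRNAs within them. Capitals mark the seed, bases 2 to 8, and the sequences are from RefSeq (GRCh38.p14).
hsa-miR-184 (chr15:79209840-79209861, plus strand): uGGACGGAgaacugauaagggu
hsa-miR-33a-5p (chr22:41900949-41900969, plus strand): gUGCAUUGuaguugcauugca
hsa-miR-33b-5p (chr17:17813897-17813916, minus strand): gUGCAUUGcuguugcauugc

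The seed of miR-184, GGACGGA, differs from the seed that miR-33a and miR-33b share, UGCAUUG. In the RefSeq annotation the miR-33a gene lies inside *SREBF2* and the miR-33b gene inside *SREBF1*. The array features of these precursor genes read 3.05 for *MIR33A* with miR-184 and 3.41 with NC, and 4.49 for *MIR33B* with miR-184 and 4.07 with NC. They differed in opposite directions, by -0.36 and 0.42, and neither passed 1.5 times. The signal of *MIR33A* was below the median of all genes, where little can be read from a difference, and that of *MIR33B* was just above it. The feature of *MIR184* itself, at 3.58 with miR-184 and 3.47 with NC, says nothing on delivery, because the mimic is already mature.

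With miR-184, 3 of the 33 genes passed 1.5 times on the higher side, 1 on the lower side and 29 lay between. The 3 higher genes were *MVD*, *INSIG1* and *SQLE*, and the lower gene was *SCD*. The share of higher genes was 9.09%, against 3.74% of all 22419 genes, and the share of lower genes was 3.03%, against 4.15%. Of the 33 genes, 31 had a mean signal at or above the median of all genes, 4.24. Among genes with that much signal the background was 6.24% higher and 7.74% lower, and for the 31 genes it was 9.68% and 3.23%. When all differences were centred on their median, 6.45% of the 31 genes were higher and 6.45% lower, against 5.37% and 8.89% of all genes with that much signal, as *SQLE* then no longer passed. The split of 3 higher and 1 lower became 2 and 2 with centring, where *FASN* was added to *SCD*, and 5 and 1 with quantile normalization. Of all 22419 genes, 910 were higher and 866 lower with quantile normalization. The shares given for the 33 and the 31 genes rest on 1 to 3 genes each, and no test of them was made. Every one of the 33 genes was measured by 1 feature.

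**Figure D1:**
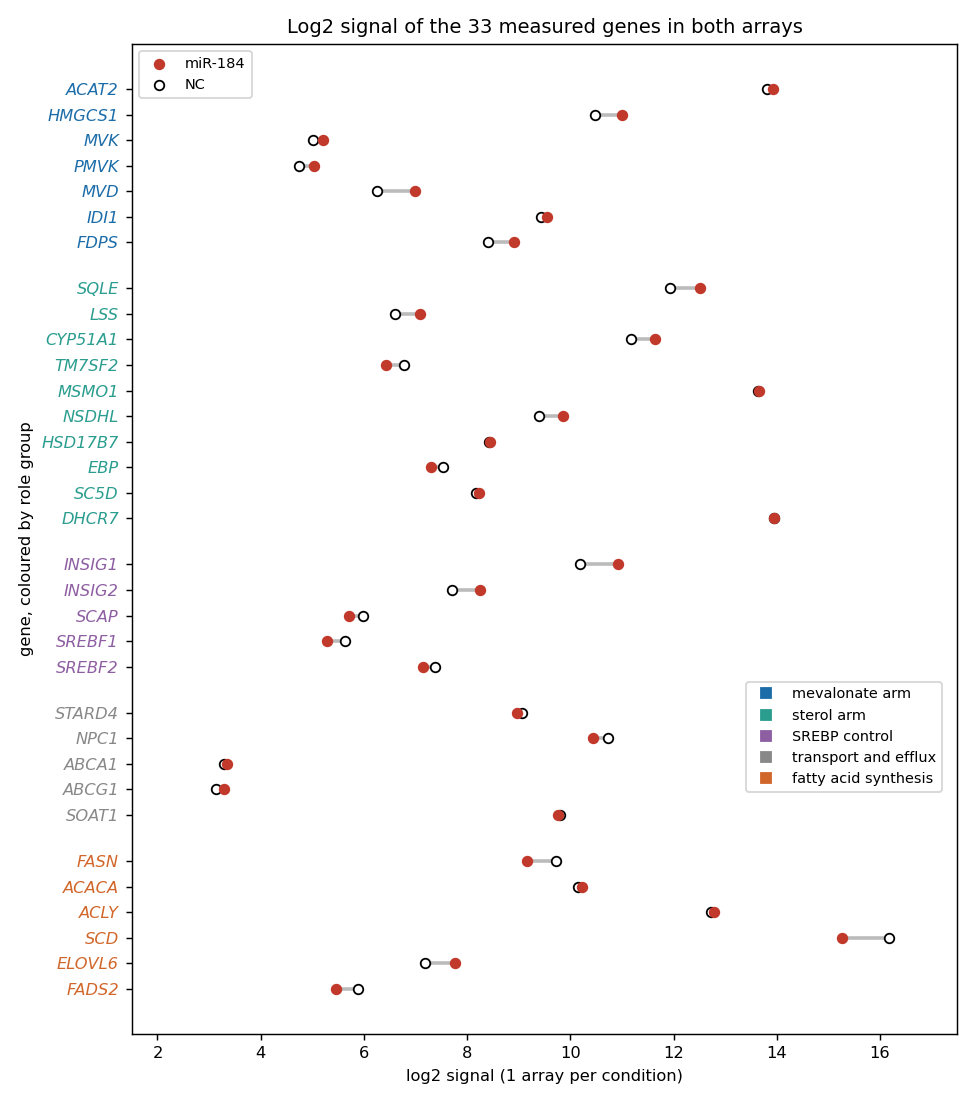
Log2 signal (horizontal axis) of each of the 33 measured genes (vertical axis) with miR-184 (filled) and with NC (open), with the gene names coloured by role group. The filled points of *MVD*, *INSIG1* and *SQLE* lie to the right of the open ones and that of *SCD* to the left, while *DHCR7* and *MSMO1* show no visible gap.

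The 7 genes of the mevalonate arm were all above 0, with a median difference of 0.28. *MVD*, the decarboxylase that makes isopentenyl diphosphate, was at 6.99 with miR-184 and 6.25 with NC, a difference of 0.74 (1.68 times higher). Of the 1000 genes nearest to it in mean signal, 3.0% had a difference as high or higher. *HMGCS1*, which condenses acetyl-CoA with acetoacetyl-CoA into HMG-CoA, was at 11.00 with miR-184 and 10.49 with NC (difference 0.51, or 1.42 times). *FDPS*, which joins isoprenoid units into farnesyl diphosphate, was at 8.90 with miR-184 and 8.41 with NC (0.49, or 1.41 times). These 3 genes were the highest of the arm, and the last 2 did not reach 1.5 times.

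The other 4 genes of the arm had smaller differences. The mevalonate kinase gene *MVK* was at 5.21 with miR-184 and 5.01 with NC (0.19). *PMVK*, the kinase of the next step, was at 5.03 with miR-184 and 4.75 with NC (0.28). The lowest were *ACAT2*, the cytosolic thiolase that opens the pathway, at 13.92 with miR-184 and 13.81 with NC, and *IDI1*, which isomerizes isopentenyl diphosphate, at 9.54 with miR-184 and 9.43 with NC, both with a difference of 0.11. Consecutive steps thus differed unequally, with *MVD* above its neighbours *PMVK* and *IDI1*.

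In the sterol arm, 7 of 10 genes were above 0 and 3 below, and the median was 0.04, the same as over all genes. *SQLE*, the epoxidase that prepares squalene for ring closure, was at 12.52 with miR-184 and 11.93 with NC. Its difference of 0.59 lay just inside the threshold, and 6.7% of the 1000 genes nearest in signal were as high or higher. The next 2 enzymes lay slightly lower. *LSS*, which closes the rings to give lanosterol, was at 7.09 with miR-184 and 6.61 with NC (0.49), and *CYP51A1*, which removes the first methyl group of lanosterol, was at 11.63 with miR-184 and 11.17 with NC (0.47).

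Further down the arm the genes no longer pointed one way. *TM7SF2*, a sterol reductase that acts on the product of CYP51A1, was at 6.43 with miR-184 and 6.78 with NC, a difference of -0.36. The 3 enzymes that remove the remaining methyl groups differed among themselves, as *NSDHL* was at 9.86 with miR-184 and 9.40 with NC (0.46), but *MSMO1* (13.66 with miR-184 and 13.64 with NC) and *HSD17B7* (8.45 with miR-184 and 8.43 with NC) had differences of 0.01 and 0.02. *EBP*, the sterol isomerase, was at 7.29 with miR-184 and 7.53 with NC (-0.24). The last enzymes were nearly level, at 8.24 with miR-184 and 8.17 with NC for the desaturase gene *SC5D* (0.07), and 13.94 with miR-184 and 13.95 with NC for the reductase gene *DHCR7* (-0.01).

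Over both arms, 14 of 17 genes (82.4%) were above 0, and the median difference was 0.19. Above 0 were also 55.4% of all genes and 46.5% of genes at or above the median signal. All these shares were counted before centring and depend on the offset between the arrays. Of the 14 genes, *MSMO1* (0.01) and *HSD17B7* (0.02) lay under the median difference over all genes, 0.04. With centring they were below 0, at -0.03 and -0.02. The differences formed 2 sets with a gap between them. The upper set of 7 genes, *MVD*, *SQLE*, *HMGCS1*, *FDPS*, *LSS*, *CYP51A1* and *NSDHL*, ran between 0.46 and 0.74, or 1.38 to 1.68 times higher with miR-184, and the other 10 lay between -0.36 and 0.28. Of all genes at or above the median signal 11.5% had a difference of 0.4 or more, and of the 17 genes 41.2% did. This bound was placed in the gap after the values had been seen, so that these shares cannot show an excess. Among the genes nearest in signal to each gene of the upper set, between 3.0% (for *MVD*) and 14.1% (for *NSDHL*) were as high or higher. From *FDPS* to *CYP51A1* all 4 measured enzymes (*FDFT1*, between *FDPS* and *SQLE*, has no value) belonged to the upper set.

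**Figure D2:**
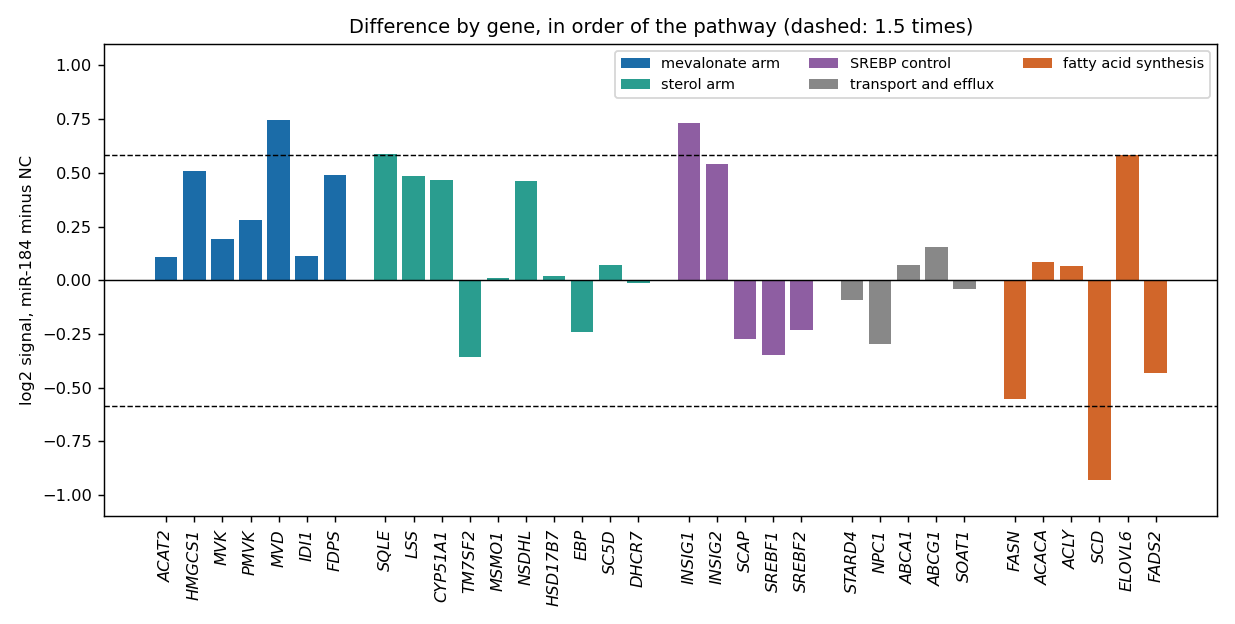
Difference in log2 signal between the miR-184 and NC arrays (vertical axis, miR-184 minus NC) for the 33 genes in order of the pathway (horizontal axis), with dashed lines at 1.5 times. Bars of the mevalonate arm all point up, the sterol arm is up to *CYP51A1* and mixed after it, the INSIG genes point up while *SCAP*, *SREBF1* and *SREBF2* point down, and *SCD* is the only gene past the lower line.

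Among the 5 genes that control the SREBPs, 1 passed 1.5 times, on the higher side, and the median was -0.23. Of all genes at or above the median signal 6.24% were higher, and the count here rests on 1 gene. The INSIG genes, whose products retain the SREBPs in the endoplasmic reticulum, were the 2 with a difference above 0. *INSIG1*, itself a well-known target of the SREBPs, was at 10.92 with miR-184 and 10.19 with NC (0.73, or 1.66 times), and 6.8% of the 1000 genes nearest in signal were as high or higher. *INSIG2*, which is regulated in a different way, was at 8.25 with miR-184 and 7.71 with NC (0.54, or 1.45 times), short of the threshold. It passed at 0.61 after quantile normalization of the arrays.

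The escort and both precursors were below 0. *SCAP* was at 5.71 with miR-184 and 5.99 with NC, a difference of -0.27. *SREBF1*, whose product favours the genes of fatty acid synthesis, was at 5.28 with miR-184 and 5.63 with NC (-0.35, or 1.27 times lower). *SREBF2*, whose product favours the genes of cholesterol synthesis, was at 7.15 with miR-184 and 7.38 with NC (-0.23, or 1.17 times lower). None of these 3 reached 1.5 times, and of the 1000 genes nearest in signal 21.3%, 15.5% and 29.6% were as low or lower, so that values this low were common at their signal. The arrays measure RNA only, and the amount of cut SREBP protein is not part of these data.

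Of the 5 measured genes of sterol transport and efflux, 0 passed 1.5 times, which is near the shares of all genes (3.74% higher and 4.15% lower). Their differences lay between -0.30 and 0.16, with a median of -0.04. *NPC1*, which moves cholesterol out of lysosomes, had the largest difference, at 10.44 with miR-184 and 10.74 with NC (-0.30). The sterol carrier gene *STARD4*, at 8.97 with miR-184 and 9.06 with NC (-0.09), and *SOAT1*, which esterifies cholesterol for storage, at 9.76 with miR-184 and 9.80 with NC (-0.04), were nearly level. The LXR targets *ABCA1* (3.35 with miR-184 and 3.28 with NC) and *ABCG1* (3.29 with miR-184 and 3.13 with NC), which export cholesterol from the cell, were the 2 of the 33 genes below the median signal of all genes. Little can be read from their differences of 0.07 and 0.16 at that signal.

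In fatty acid synthesis, 0 of 6 genes were higher and 1 was lower, a count that rests on 1 gene. Of all genes at or above the median signal, 6.24% were higher and 7.74% lower. It was the one branch with *SCD* past the threshold on the lower side and *ELOVL6* just short of it on the higher side. Of the 6 genes, 3 were above 0 and 3 below (median -0.18), where 46.5% of all genes with that much signal were above 0. *SCD*, the desaturase that makes oleic from stearic acid, was at 15.25 with miR-184 and 16.18 with NC, a difference of -0.93 (1.90 times lower), the largest of the 33 genes. Of the 1000 genes nearest in signal 5.3% were as low or lower. *FASN*, the fatty acid synthase gene, was at 9.17 with miR-184 and 9.72 with NC (-0.55, or 1.47 times lower), just outside the threshold, and passed it at -0.59 when the differences were centred. *FADS2*, a desaturase of polyunsaturated fatty acids, was at 5.46 with miR-184 and 5.89 with NC (-0.43).

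On the other side stood *ELOVL6*, which lengthens palmitic to stearic acid and so supplies SCD. It was at 7.76 with miR-184 and 7.18 with NC, and its difference of 0.58 was the value closest to the threshold from outside. It passed at 0.65 after quantile normalization and at 0.61 after removal of the trend with signal. *ACLY*, which makes cytosolic acetyl-CoA from citrate, was at 12.79 with miR-184 and 12.72 with NC (0.07). *ACACA*, the carboxylase that makes malonyl-CoA, was at 10.23 with miR-184 and 10.14 with NC (0.08). The genes of precursor supply were thus nearly level, while the elongase and desaturase genes of 2 steps in a row differed in opposite directions.

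**Figure D3:**
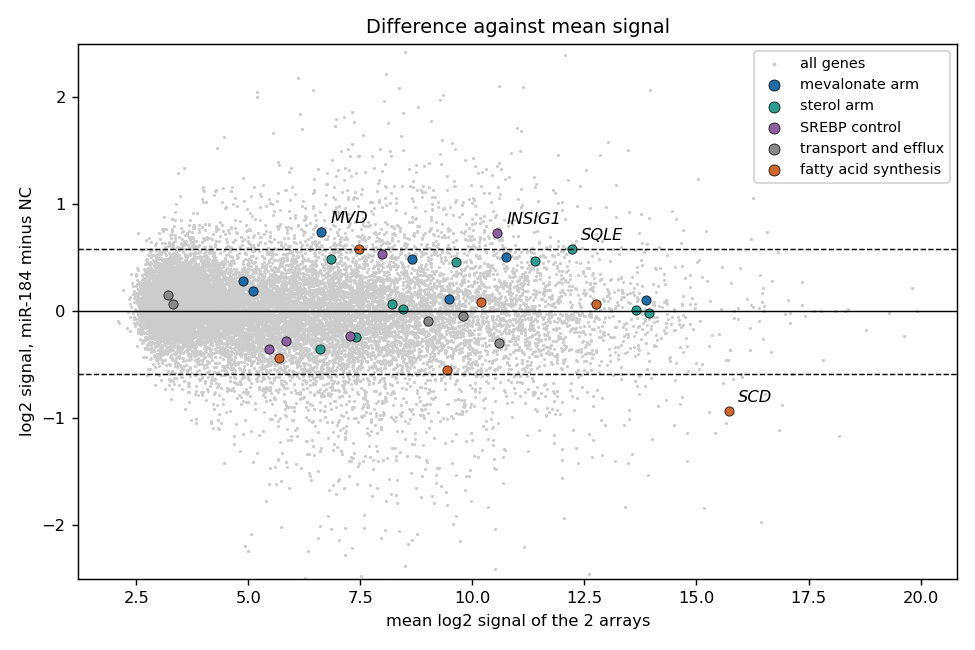
Difference in log2 signal (vertical axis, miR-184 minus NC) against the mean log2 signal of both arrays (horizontal axis) for all 22419 genes (grey) and the 33 genes (coloured by role group), with dashed lines at 1.5 times; 25 genes lie beyond the vertical axis, which ends at 2.5 on either side. The coloured points lie within the grey cloud, with *MVD*, *INSIG1* and *SQLE* at or above the upper line and *SCD* below the lower one.

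Genes of the same pathways outside the 37 were read from 4 further lists of 73 genes, on which 61 genes had a value. Of these, 7 passed 1.5 times on the higher side (11.5%, against 3.74% of all genes), 5 on the lower side (8.2%, against 4.15%) and 49 lay between, with a median of -0.03. Among the 51 of them at or above the median signal the shares were 13.7% higher and 9.8% lower, against 6.24% and 7.74% of all genes with that signal. The list of SREBP processing and degradation had the highest median, 0.38 over 9 measured of 12 listed genes, with 6 above 0 and 3 below. Those below 0 were *MBTPS1* (-0.14), *MBTPS2* (-0.11) and *SPRING1* (-0.16), named after their values had been seen. The median therefore does not stand for every gene of that list. The list of cholesterol synthesis and uptake had 15 genes, of which only 9 were measured. Of these 9, 2 were higher and 3 lower. Among the genes of LXR signaling and sterol transport, 1 of 19 was higher and 2 were lower (median -0.03), and 2 of 24 genes of fatty acid and glycerolipid synthesis were higher and 0 lower (median -0.06).

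Several of these genes act beside a member. *ERG28*, which encodes a scaffold of the sterol demethylation enzymes MSMO1, NSDHL and HSD17B7, was at 12.10 with miR-184 and 13.30 with NC, a difference of -1.20 (2.30 times lower), while *NSDHL* had a difference of 0.46 and those of *MSMO1* and *HSD17B7* were near 0, with a sign that turned with the scaling. *LBR*, which encodes a lamin B receptor with the same sterol reductase activity as TM7SF2, was at 9.73 with miR-184 and 9.03 with NC (0.69), opposite in sign to *TM7SF2*. *ACAT1*, the mitochondrial thiolase, was at 8.96 with miR-184 and 8.04 with NC (0.92), while its cytosolic counterpart *ACAT2* had a difference of 0.11. *SCD5*, the other human stearoyl-CoA desaturase, was at 8.65 with miR-184 and 9.07 with NC (-0.41), on the same side as *SCD*. *LBR* and *SCD5* were singled out after their values had been seen.

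*ERLIN1*, a membrane protein that binds SREBP, SCAP and INSIG in the endoplasmic reticulum, was at 9.18 with miR-184 and 8.01 with NC (1.17, or 2.25 times higher), and its partner *ERLIN2*, also named after its value had been seen, was at 5.57 with miR-184 and 5.05 with NC (0.52). *TRIB1*, a pseudokinase linked to hepatic lipid synthesis, had a difference of 0.89. The largest difference among the 61 genes was that of *ME1*, the malic enzyme that supplies NADPH for lipid synthesis, at 11.85 with miR-184 and 10.13 with NC (1.72, or 3.29 times higher). *ACSL4*, which activates arachidonic acid, had a difference of 0.76.

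Of the genes for uptake and membrane sterols, *SCARB1*, the receptor for high-density lipoprotein, was at 8.06 with miR-184 and 8.78 with NC (-0.71). *LPCAT3*, an LXR target that places polyunsaturated fatty acids in phospholipids, was at 10.64 with miR-184 and 11.79 with NC (-1.16, or 2.23 times lower). Of the sterol carriers that bridge the plasma membrane and the endoplasmic reticulum, *GRAMD1B* had a difference of 0.81 and *GRAMD1C* of -0.81. *TMEM97*, an NPC1-binding protein of the endoplasmic reticulum, had a difference of -0.61 and, like *LBR*, was named after its value had been seen.

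**Figure D4:**
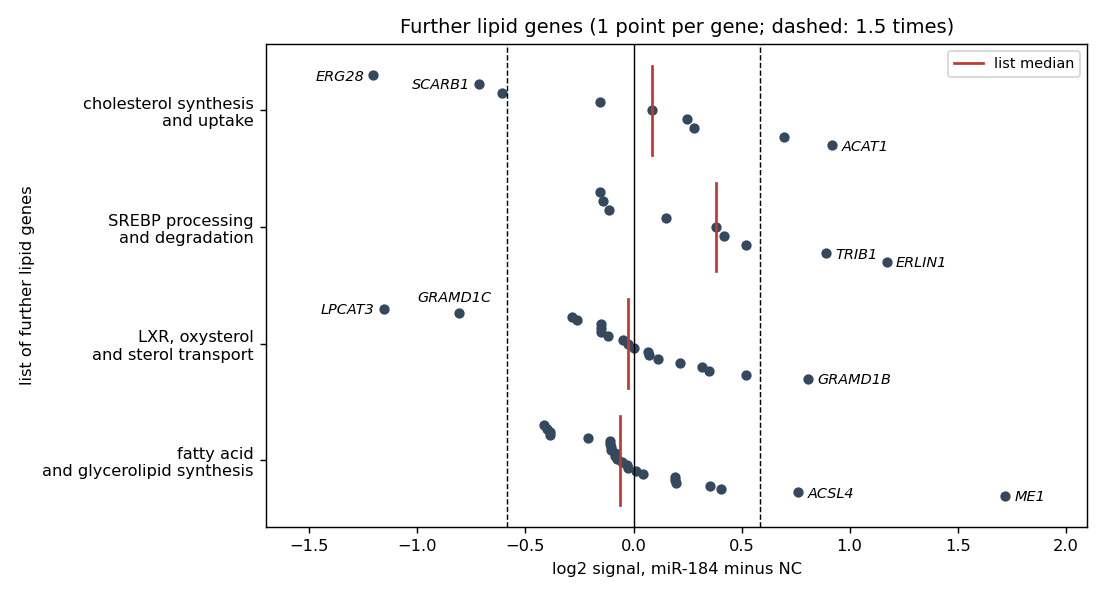
Difference in log2 signal (horizontal axis, miR-184 minus NC) of 61 further lipid genes in 4 lists (vertical axis), 1 point per gene, with red bars at the list medians and dashed lines at 1.5 times. Genes past the threshold lie on both sides in the cholesterol and the LXR lists and only on the higher side in the other 2.

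To show what the genes share upstream, the 250 bases before each RefSeq start were searched on both strands for the core of the sterol regulatory element bound by SREBPs (TCACNCCAC), the CCAAT box bound by NF-Y, a frequent partner of SREBPs, and the E-box (CACGTG). Such windows were used for 32 of the 37 genes, without *ACAT2*, *FDFT1*, *SQLE*, *ABCG1* and *FASN*, and a gene with several starts counted if any of its windows had a match. The CCAAT box was present in 22 of 32 genes (68.8%), against 37.0% of 27305 genes with a window, and in 13 of the 15 genes of cholesterol synthesis with a window. The E-box was present in 4 of 32 genes (12.5%, against 7.73%). The sterol core was present in 1 of 32, *SREBF2* (3.12%, against 1.09%). The 27305 genes were not matched to the members by kind of gene or by number of starts. These shares therefore cannot show a trait of the pathway. No matches of different motifs overlapped. A match is a description of the letters and no evidence of binding, and a window without a match says nothing on a site elsewhere or in a degenerate form.

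The windows of *SREBF2*, which has the sterol core, and of *INSIG1*, *MVD* and *SCD*, the genes past 1.5 times with a window, are printed with their matches in capitals, 5′ to 3′ along the gene (RefSeq, GRCh38.p14).
SREBF2 (chr22:41832855-41833104, plus strand): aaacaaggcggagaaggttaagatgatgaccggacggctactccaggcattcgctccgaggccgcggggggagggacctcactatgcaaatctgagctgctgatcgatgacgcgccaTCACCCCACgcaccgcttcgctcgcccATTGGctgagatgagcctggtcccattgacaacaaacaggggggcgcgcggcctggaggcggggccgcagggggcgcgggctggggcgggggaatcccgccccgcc
INSIG1 (chr7:155297628-155297877, plus strand): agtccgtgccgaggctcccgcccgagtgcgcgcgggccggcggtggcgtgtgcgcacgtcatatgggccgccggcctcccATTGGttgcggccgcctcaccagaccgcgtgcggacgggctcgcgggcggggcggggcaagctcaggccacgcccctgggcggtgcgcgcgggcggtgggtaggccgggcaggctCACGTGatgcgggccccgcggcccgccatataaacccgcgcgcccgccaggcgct
MVD (chr16:88663092-88663341, minus strand): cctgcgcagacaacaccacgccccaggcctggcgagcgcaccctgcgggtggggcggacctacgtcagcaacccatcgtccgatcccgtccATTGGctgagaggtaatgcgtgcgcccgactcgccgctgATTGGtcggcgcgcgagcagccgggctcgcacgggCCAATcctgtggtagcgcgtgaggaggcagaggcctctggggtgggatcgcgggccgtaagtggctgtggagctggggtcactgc
SCD (chr10:100346983-100347232, plus strand): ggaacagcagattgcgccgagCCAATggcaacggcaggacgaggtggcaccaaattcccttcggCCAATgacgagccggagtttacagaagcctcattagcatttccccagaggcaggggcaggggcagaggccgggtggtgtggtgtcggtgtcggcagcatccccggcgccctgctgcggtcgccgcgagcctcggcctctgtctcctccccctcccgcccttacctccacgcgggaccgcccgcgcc

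The core in *SREBF2* lies 133 to 125 bases before the start, with a CCAAT box on the opposite strand at 106 to 102. The window of *INSIG1* has a CCAAT box and an E-box, that of *MVD* has 3 CCAAT boxes and that of *SCD* has 2. Genes with a CCAAT box were found on both sides of 0, *MVD* at 0.74 and *SCD* at -0.93.

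**Figure D5:**
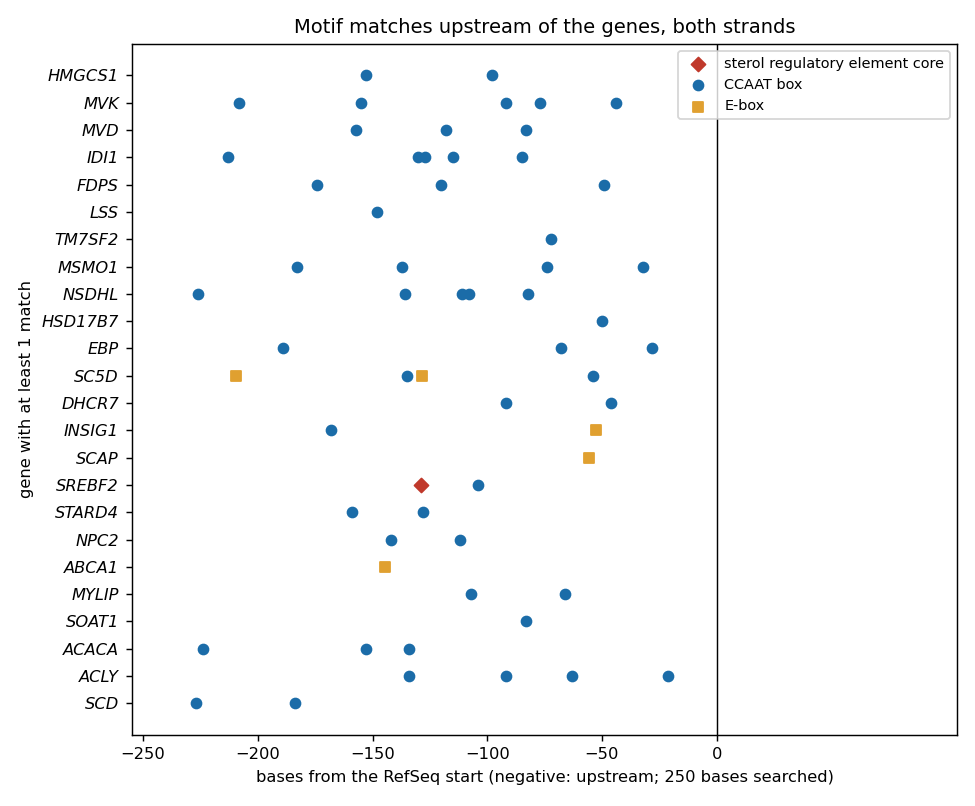
Position of each motif match (horizontal axis, bases from the RefSeq start, upstream negative) in the 250 bases before the starts of the genes with at least 1 match (vertical axis). CCAAT boxes are spread over most of the synthesis genes, and the sterol core appears once, in *SREBF2*.

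Some features may read more than the named gene. RefSeq names pseudogenes of 5 of the 33 genes, 10 of *FDPS*, 3 each of *IDI1* and *CYP51A1*, 2 of *HSD17B7* and 1 of *SCD*, and probes of near-identical copies may pick up both. The span of 8 genes overlaps another protein-coding gene, as *ACAT2* does *TCP1* and *FADS2* does *FADS1*, and strand is not stated for these signals. *MVD*, *SQLE* and *INSIG1* have neither.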

How the data were processed

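Total RNA was measured in HCECs given 50 nM of the mimic or of NC and harvested at 48 h, with 1 array per condition. Per the methods, the authors hybridised it to the Affymetrix Human Transcriptome Array 2.0 and normalized it with Expression Console, and a column heading of a supplementary table names gene-level RMA. Deposited were log2 signals, 1 per feature. Agilent Cy3 labelling is described in the sample labels instead, with Agilent Feature Extraction 9.1 in the submitters' processing notes, whereas the identifiers have the form used on Affymetrix arrays. No genome build was stated for the array.

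Genes were named from the 23730 features to which the platform annotation gives 1 symbol, and those with several symbols (1539) or not listed (40585) were not used. The feature with the highest mean signal stood for a gene. No other normalization and no filter was applied. The log2 signal in NC was subtracted from that in miR-184, and differences were counted at 1.5 times, the inverse of the study's own fold bound for lower genes. The study also set a bound on the *P*-value, which was not applied here. No test was made, since neither condition has a replicate, and the number of arrays limits the precision. The place of a gene among the 1000 genes nearest in mean signal is a description.

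The members and gene lists were chosen with earlier results of these data known. All members with a feature are named, those past 1.5 times and the 2 highest and 2 lowest of each role group with both signals, and of the further lists the 10 largest differences past 1.5 times. *LBR*, *TMEM97*, *SCD5*, *ERLIN2*, *MBTPS1*, *MBTPS2* and *SPRING1* are named beside them, outside this rule. Alternatives were centring, quantile normalization, removal of a loess trend with signal (span 0.3), averaging a gene's features, leaving out genes under the median signal, and a threshold of 2 times. The computation was checked on simulated data with differences well past the threshold and little noise, which says nothing on calls near it. Sequences are those of RefSeq (GRCh38.p14). Python 3.11.15 was used with numpy 2.4.6, pandas 2.3.3, statsmodels 0.14.6 and matplotlib 3.10.9.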

Additional observations from a re-analysis of the deposited data

How the results depend on the processing

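None of the 4 genes of the 33 that passed 1.5 times turned its sign under the 4 alternatives that apply to single differences. Averaging could not change them, since each gene has 1 feature. Centring shifted all differences by 0.04, and the trend removed at the 33 genes lay between -0.04 and 0.07. Averaging, centring and removal of the trend therefore could not turn the sign of a difference of 0.585 or more. Quantile normalization has no such bound, and with it *SCD* was at -0.74, against -0.93 as deposited. The number of higher genes among the 33 was 3, and was 5 after quantile normalization (with *INSIG2* and *ELOVL6*) and 0 at a threshold of 2 times. The number of lower genes was 1, and was 2 after centring (with *FASN*) and 0 at 2 times. At 2 times, 2 of the 61 further genes were higher and 2 lower. Of all 22419 genes, 222 were higher and 303 lower at 2 times. After quantile normalization, 910 of all genes were higher and 866 lower at 1.5 times. The median of the 33 genes was 0.0712, and was 0.0301 with centring and 0.121 with quantile normalization. That of the sterol arm was 0.0446, and was 0.0035 with centring, 0.139 with quantile normalization and 0.0738 without the trend with signal. That of transport and efflux was -0.0426, and was -0.0836, 0.0033 and -0.0176 in the same order, and -0.0898 without genes under the median signal. That of the further genes was -0.0273, and was -0.0683 with centring, 0.0137 with quantile normalization and -0.052 without genes under the median signal. These medians lie near 0, and their signs should not be read. The medians of the mevalonate arm, of SREBP control and of fatty acid synthesis moved by less than 1.5 times. Of the 33 single differences, 4 turned their sign with the scaling, those of *MSMO1*, *HSD17B7*, *DHCR7* and *SOAT1*, none of them larger than 0.04, and the widest range of a single difference over these settings was 0.23. *SQLE* was at 0.54 after centring, under the threshold. No paired analysis was possible because each condition has 1 array, and for the same reason no replicate could be left out.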
